A study of Homo sapiens with 18 samples.

Results

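Chromatin accessibility was compared between 2 lines of K562, an established human chronic myeloid leukemia cell line that carries the BCR-ABL1 fusion and expresses erythroid genes. V-K562 cells carried the empty expression vector, and B-K562 cells expressed wild-type BASP1. Both lines were stably transfected and drug selected, 1 line for each construct, so any difference between the lines other than BASP1 cannot be told apart from BASP1. ATAC-seq libraries were prepared from 3 independent cultures of each line, after DNase treatment of the cells. The intervals of these 6 libraries merged into 76743 regions, of which the 52299 with a called peak in at least 3 libraries were tested, against 85549 regions merged over the 9 ATAC-seq libraries of the series.

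ATAC-seq uses a transposase that inserts adapters into DNA not covered by nucleosomes, so a pile of sequenced ends, or tags, marks an open promoter, enhancer or insulator. BASP1 is a corepressor that binds WT1, a zinc-finger protein of GC-rich sites, and it was expressed here to ask how it changes the chromatin of these cells. Distal open regions of blood cells are bound by lineage factors such as GATA1, the master regulator of erythroid genes, and by signal-driven factors such as AP-1, the dimer of FOS and JUN proteins that acts downstream of MAP kinases.

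The value of a region in a library was its summit pileup, the number of tags over the highest point of its peak. In the RNA-seq libraries of the same lines, BASP1 had normalized read counts of 7, 5 and 7 in the V-K562 libraries and of 6849, 6618 and 6189 in the B-K562 libraries. This gene was near 0 in every V-K562 library and abundant in every B-K562 library, with a log2 difference of 9.82 (SE 0.12, adjusted p = 4.2e-15, limma). The ATAC-seq libraries had been sampled by the authors to an equal number of tags, and held 53862 to 55570 peaks in V-K562 and 47111 to 48905 in B-K562, with a median summit pileup of 41 tags in each V-K562 and 46 in each B-K562 library. Pearson correlations of log2 values over regions, which share base composition and peak calling, were 0.907 to 0.918 within V-K562, 0.946 to 0.949 within B-K562 and 0.820 to 0.848 between the lines. All 10 genes of the K562 marker list were expressed in both lines, among them GATA1 at 8033 to 8083 in V-K562 and 9173 to 9548 in B-K562 and the embryonic globin gene HBE1 at 40294 to 48550 and 64551 to 66612. Of the list for other blood cells, CD3D and PAX5 were lower in B-K562 RNA, and MS4A1 was listed at 0 in all 6 libraries. Of this list 6 genes were tested in RNA, with 3 lower and none higher, against 14.1% and 6.46% of all genes tested. None of the 15 tested regions of the list was called.

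The sequences below are 200 bp of GRCh38 (hg38, plus strand) around the summits of regions on which the results turn, with the matched motif in capitals. The first 3 are the regions with the largest falls among those that had a peak in all 6 libraries and an AP-1 match (TGANTCA, searched on both strands).
ABL1 intron, closed, chr9:130860892-130861091: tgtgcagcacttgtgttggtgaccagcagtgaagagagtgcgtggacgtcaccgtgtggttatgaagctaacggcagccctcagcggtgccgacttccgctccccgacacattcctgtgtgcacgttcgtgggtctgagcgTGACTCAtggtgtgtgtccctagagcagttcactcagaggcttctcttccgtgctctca
intergenic, closed, chr5:5598652-5598851: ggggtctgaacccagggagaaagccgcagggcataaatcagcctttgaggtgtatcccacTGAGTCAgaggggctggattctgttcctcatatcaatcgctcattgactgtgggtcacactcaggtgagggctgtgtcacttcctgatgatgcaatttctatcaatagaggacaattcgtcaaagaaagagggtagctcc
upstream of ITSN2, closed, chr2:24253372-24253571: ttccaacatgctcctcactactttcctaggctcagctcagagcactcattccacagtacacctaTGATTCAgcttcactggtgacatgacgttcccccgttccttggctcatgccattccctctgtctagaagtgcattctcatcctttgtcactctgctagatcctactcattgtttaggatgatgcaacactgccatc
The next 2 are regions with large rises that had a peak in all 6 libraries and a GATA match (AGATAA, both strands, so that TTATCT is the same site read on the other strand).
upstream of LCA5L, opened, chr21:39430524-39430723: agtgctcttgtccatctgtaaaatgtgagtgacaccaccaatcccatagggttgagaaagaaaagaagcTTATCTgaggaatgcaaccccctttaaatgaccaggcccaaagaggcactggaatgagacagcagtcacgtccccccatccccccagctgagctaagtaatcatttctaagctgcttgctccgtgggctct
POU2F3 intron, opened, chr11:120281404-120281603: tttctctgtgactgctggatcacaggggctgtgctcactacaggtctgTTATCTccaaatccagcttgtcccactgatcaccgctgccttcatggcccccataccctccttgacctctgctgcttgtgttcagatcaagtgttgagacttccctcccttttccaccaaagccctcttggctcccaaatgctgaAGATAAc
The last 3 lie in genes followed through the report, with an AP-1 match in the introns of VDR and AREG and a GATA match upstream of GATA1.
VDR intron, closed, chr12:47867740-47867939: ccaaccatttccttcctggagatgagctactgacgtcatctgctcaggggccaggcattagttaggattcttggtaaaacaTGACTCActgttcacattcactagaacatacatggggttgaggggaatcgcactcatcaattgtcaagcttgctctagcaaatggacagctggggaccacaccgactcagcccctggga
AREG intron, closed, chr4:74451228-74451427: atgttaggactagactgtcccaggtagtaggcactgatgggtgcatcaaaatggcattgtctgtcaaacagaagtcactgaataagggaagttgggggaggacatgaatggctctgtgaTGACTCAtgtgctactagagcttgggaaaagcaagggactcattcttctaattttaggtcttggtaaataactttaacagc
upstream of GATA1, opened, chrX:48785884-48786083: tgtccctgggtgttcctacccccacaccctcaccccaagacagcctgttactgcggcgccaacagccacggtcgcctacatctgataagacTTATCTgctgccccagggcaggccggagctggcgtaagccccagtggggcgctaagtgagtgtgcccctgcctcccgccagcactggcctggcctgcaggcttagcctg

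In B-K562 cells 3205 regions were less accessible than in V-K562 cells and 811 were more accessible, called closed and opened here (limma, a difference of 2-fold or more at a Benjamini-Hochberg adjusted p up to 0.05). These were 6.13% and 1.55% of the regions tested, and 79.8% of the called regions were closed (Wilson 95% interval 78.5 to 81.0%, counting error only). The balance moved with the scaling between libraries: 65.9% of called regions were closed with no scaling beyond the equal tags (2315 closed, 1199 opened), and 69.8% with scaling within bins of GC content (2243 closed, 969 opened). The median log2 difference over all regions was -0.06 with the scaling used, 0.06 with none and -0.03 with GC scaling. In all of these scalings 1976 regions were closed and 696 opened. In these bulk libraries, a region open in fewer cells and a region less open in each cell cannot be told apart, and the same holds for RNA.

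Most called regions lacked a peak in at least 1 library. Of the closed regions 1051 had a peak in every V-K562 library and in no B-K562 library, and of the opened regions 345 had the reverse. The 1025 closed regions with peaks in all 6 libraries had median scaled values of 68.7, 67.2 and 69.6 tags in the V-K562 libraries and of 27.9, 26.8 and 27.8 in the B-K562 libraries. The 212 opened regions of this kind rose from medians of 36.5, 38.2 and 35.9 to 91.2, 91.0 and 91.1. These medians describe how the regions were called. A library without a peak was given 17 tags, the 5th percentile of all summit values, because its true value is not in the deposited intervals, so for such regions only the tags are given, with no fold and no p, and their calls rest on that floor. Within a line, a library lacked a peak in 2.46% (V-K562) and 2.45% (B-K562) of cases where the other libraries of the line averaged 40 to 60 tags, and in 0.0121% and 0.0321% where they averaged 100 tags or more. A tested region with a peak in every library of the other line lay within 1 kb of 109 of the 1051 regions without a B-K562 peak (10.4%). The same held for 98 of the 345 without a V-K562 peak (28.4%). Neighbours with a peak in only some libraries of the other line were not counted.

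**Figure D1:**
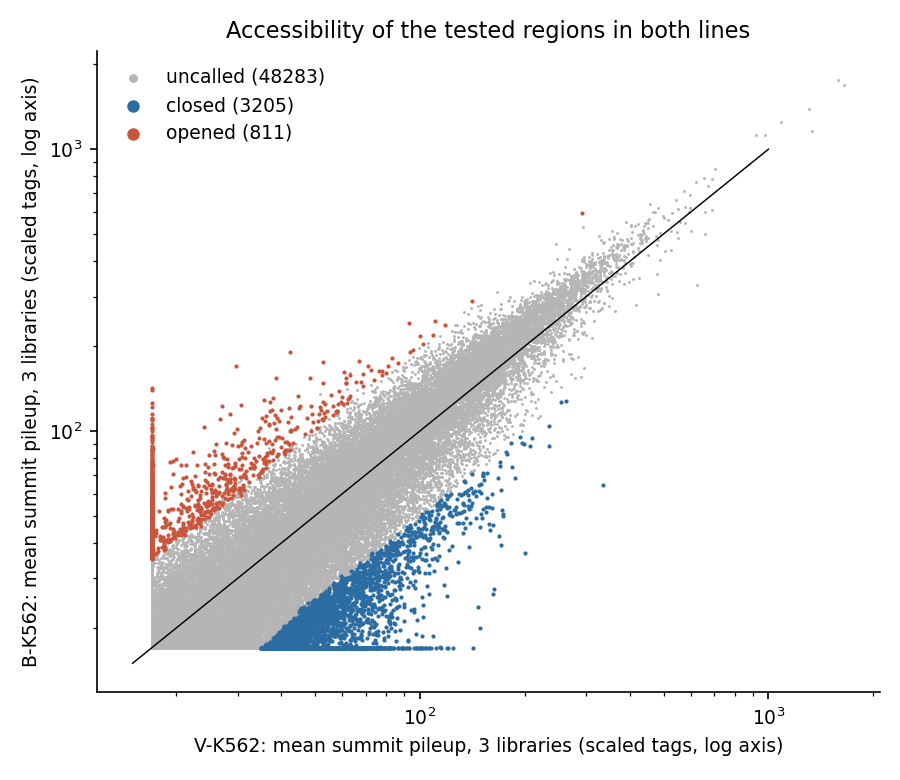
Mean summit pileup of each tested region in V-K562 (x axis) and B-K562 (y axis), in scaled tags on log axes, with 17 tags in place of missing peaks. Blue points are the 3205 closed regions, red points the 811 opened regions, grey points the rest, and the line marks equal values; the called regions along the 17-tag edges had no peak in a line.

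Loss of accessibility was mostly away from promoters. Of the 11895 tested regions whose summit lay within 500 bp of a protein-coding start, 149 were closed (1.25%) and 155 opened (1.30%). Closed regions made up 6.47% of those at 0.5 to 5 kb from a start, 7.22% of those at 5 to 50 kb and 8.86% of those farther than 50 kb, while opened regions made up 2.89%, 1.27% and 1.57%. Of the 3205 closed regions 2622 were thus more than 5 kb from a start, as were 33694 of the 52299 regions tested. By annotation 45.6% of closed regions were intergenic and 37.6% intronic, against 33.9% and 30.3% of the opened regions. Of all regions tested these shares were 35.25% and 30.75%. The median log2 difference of start-site regions was 0.22, against -0.19 at 5 to 50 kb and -0.22 beyond 50 kb. The start-site median stayed above the distal medians with no scaling (0.37 against -0.07 and -0.11) and with GC scaling (0.06 against -0.09 and -0.10). Base composition moved with the calls: median GC content was 47.9% in closed, 53.7% in opened and 53.1% in uncalled regions. Its part in the result was not tested beyond the GC scaling, under which 103 start-site regions were opened, against 155, and 276 with no scaling.

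**Figure D2:**
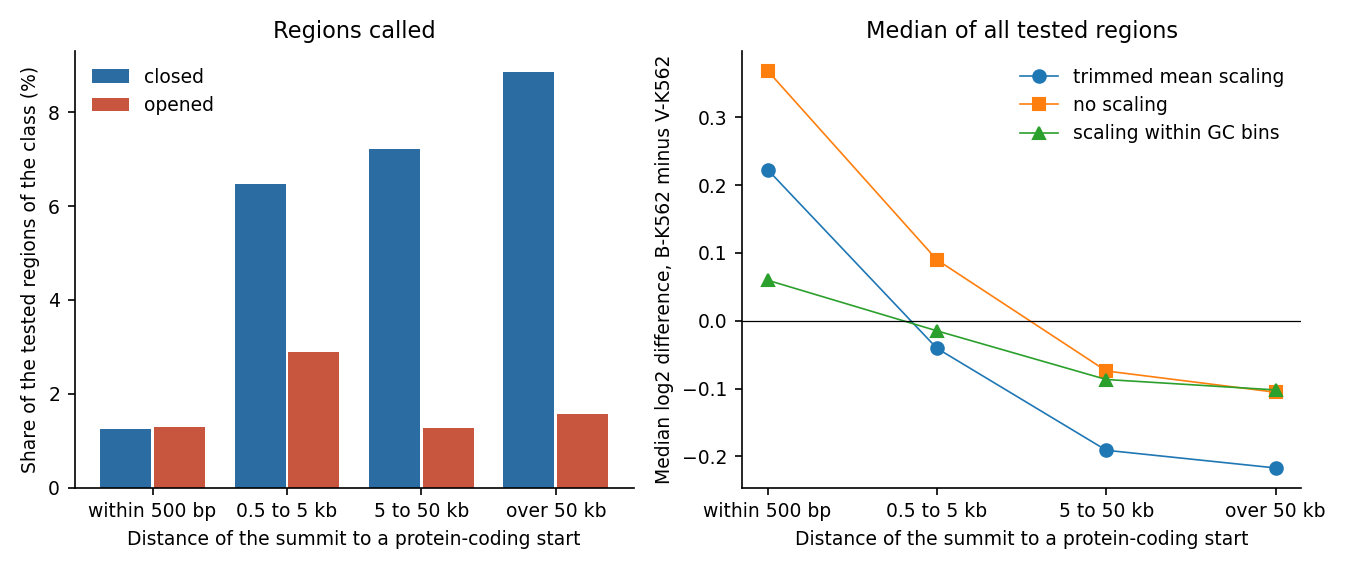
Left, share of tested regions called closed (blue) or opened (red) by distance from the summit to the nearest protein-coding start, in percent from 0. Right, median log2 difference of all tested regions of each class under 3 scalings; with the scaling used it falls from 0.22 at starts to -0.22 beyond 50 kb, and the start-site class is highest under each.

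The letters under the summits were then compared between closed and opened regions. AP-1 motifs lay in the central 200 bp of 35.9% of closed regions (1150 of 3205) and of 7.52% of opened regions (61 of 811), against 16.6% of all regions tested. GATA motifs showed the other order, with 23.4% of closed and 31.2% of opened regions against 19.8% of all. With no fold criterion the AP-1 order held (33.5% of 8625 closed and 5.63% of 4548 opened regions), and the GATA order turned (24.3% and 18.8%). Among the 33694 regions more than 5 kb from a start, AP-1 motifs lay in 37.1% of closed, 8.44% of opened and 19.7% of uncalled regions, and GATA motifs in 24.8%, 39.6% and 25.2%. A match is a description of the letters under the summit and does not show that a factor was bound.

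Other motifs of distal regions differed as well. The STAT motif (TTCNNNGAA), read by the cytokine-activated STAT proteins, lay in 11.9% of closed, 4.33% of opened and 5.79% of uncalled regions. The motif of the insulator protein CTCF, searched as its long consensus, was less frequent in called regions, at 1.26% of closed and 1.95% of opened against 8.79% of uncalled regions. The GC box (GGGCGG), which Sp1-type factors read, was in 6.26% of closed, 15.2% of opened and 12.8% of uncalled regions. With GC scaling it was in 8.66% of closed and 10.7% of opened regions, both below the 12.3% of all distal regions. A match to CCNCACCC, the letters read by KLF1 and related erythroid factors, was in 9.0%, 14.7% and 10.5%. The letters of a WT1 or EGR site (GCGNGGGNG) were rare away from starts, in 1.79% of closed, 3.03% of opened and 3.56% of uncalled distal regions, and lay in 20.8% of all start-site regions. Within start-site regions they were in 7.38% of the 149 closed and 25.2% of the 155 opened regions, and with GC scaling in 14.2% and 20.4%.

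The AP-1 difference was present at every GC content. With the distal regions split into 5 equal classes by GC content, from the lowest to the highest, 39.6%, 35.7%, 35.3%, 36.0% and 38.7% of closed regions held the AP-1 motif, against 26.4%, 22.5%, 21.2%, 18.5% and 10.6% of uncalled regions. Opened regions held it in 11.9%, 9.52%, 7.62%, 8.51% and 6.67%. GATA motifs were in 52.5%, 56.0%, 43.8%, 38.3% and 19.2% of opened regions and in 41.5%, 33.7%, 26.1%, 18.2% and 7.78% of uncalled regions of the same classes. Closed regions held them in 36.0%, 27.5%, 23.3%, 15.2% and 4.94%, below the uncalled share in each class. Restricting the regions to those with peaks in all 6 libraries, AP-1 motifs were in 40.9% of closed, 7.55% of opened and 14.7% of all regions, and GATA motifs in 26.2%, 36.8% and 18.7%.

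The motifs were also read the other way, from all distal regions that held them. Of the 5437 distal regions with an AP-1 and no GATA motif, 14.6% were closed and 0.423% opened, and their median log2 difference was -0.44. Their median values were 39.7, 39.3 and 40.1 tags in the V-K562 libraries and 26.1, 24.9 and 24.9 in the B-K562 libraries, where regions with neither motif had a median log2 difference of -0.14. The 6930 distal regions with a GATA and no AP-1 motif went from medians of 37.6, 37.2 and 36.9 to 31.6, 31.6 and 30.7 tags, and 6.81% of them were closed and 2.41% opened. With both motifs (1608 regions) 11.1% were closed and 0.995% opened, and with neither (19719 regions) 5.97% and 1.30%. The regions of a class share their libraries, and these shares carry no test.

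**Figure D3:**
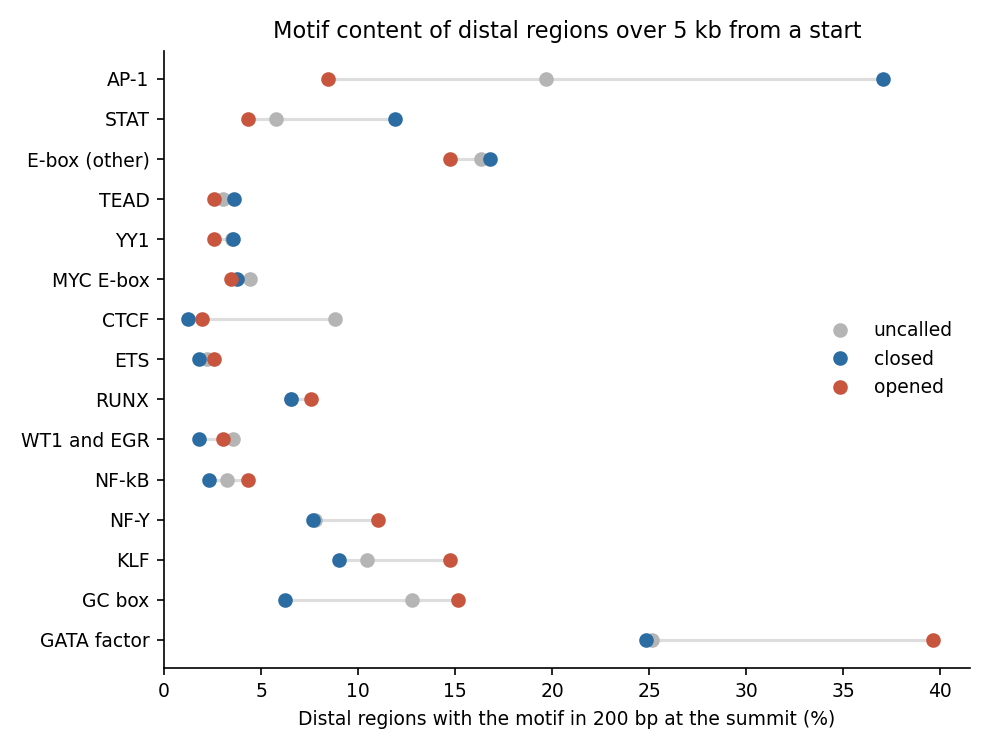
Share of closed (blue), opened (red) and uncalled (grey) distal regions that hold each motif in the 200 bp at the summit, in percent, ordered by the closed minus the opened share; motifs under 2% of distal regions are left out. AP-1 is at 37.1% of closed against 8.44% of opened regions, and GATA at 24.8% against 39.6%.

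The largest falls among regions with a peak in all 6 libraries were led by the promoter of SCN9A, the voltage-gated sodium channel of pain neurons. Its start-site region (chr2:166375729-166376537) had 122, 151 and 145 tags in V-K562 and 21, 24 and 30 in B-K562. The groups did not overlap, with means of 139.3 ± 15.3 and 25 ± 4.58 tags (SD, n = 3 each) and a log2 difference of -2.59 (SE 0.18, adjusted p = 0.00087). SCN9A RNA fell with it, from normalized read counts of 444, 386 and 426 to 30, 37 and 39 (log2 difference -3.54, adjusted p = 5.2e-11).

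A fall of similar size lay inside ABL1, the tyrosine kinase gene of the BCR-ABL1 fusion. The intronic region chr9:130860754-130861245, whose AP-1 motif is printed above, had 331, 299 and 321 tags in V-K562 and 72, 84 and 48 in B-K562 (log2 difference -2.39, SE 0.18, adjusted p = 0.00099). Of 10 tested ABL1 regions 4 were closed and none opened, while the start-site region had 180, 208 and 219 tags in V-K562 and 235, 244 and 251 in B-K562 (log2 difference 0.12, not called). The nearest tested neighbour of the fallen region, chr9:130866397-130866852, went from 285, 314 and 292 to 239, 209 and 229 tags, a log2 difference of -0.55 that stayed under 2-fold. ABL1 RNA was not called, at a log2 difference of 0.27. BCR, the other gene of the fusion, had 15 tested regions, of which 2 were closed and 2 opened. The region upstream of BCR at chr22:23177141-23177646, one of its highest in V-K562, had 577, 598 and 603 tags there and 362, 328 and 351 in B-K562, and its log2 difference of -0.92 (adjusted p = 0.00087) missed the 2-fold criterion.

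The other leading falls were outside promoters. A region in SLC22A2, an organic cation transporter gene of the kidney, had 108, 78 and 102 tags in V-K562 and 17, 21 and 20 in B-K562 (log2 difference -2.36, adjusted p = 0.0012), with RNA at 0 to 2 in all libraries. The region upstream of ITSN2, an endocytic scaffold gene, fell from 97, 102 and 92 to 14, 17 and 33 tags (-2.23, adjusted p = 0.0021), with an RNA log2 difference of 0.11 that was not called. The intergenic region at chr5:5598531-5599091, also printed above, fell from 92, 95 and 90 to 18, 17 and 24 tags (-2.31). Further intergenic falls were at chr2:145693039-145693540 (-2.56), chr10:64508007-64508480 (-2.52) and chr3:18208825-18209337, beside the noncoding gene LOC339862 (-2.40). In each of these regions all V-K562 values were above all B-K562 values. This separation, like that of SCN9A, comes with choosing the largest falls and is no further evidence.

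Among the 8 largest rises of regions with a peak in all 6 libraries, a region 20.1 kb from the start of the ribosome-assembly gene SBDS rose from 31, 46 and 44 to 199, 211 and 191 tags (2.16, adjusted p = 0.00087). By the choice of the largest rises the lines were far apart there, with every B-K562 value more than 100 tags above every V-K562 value. A region in RNF220, a ubiquitin ligase gene, rose from 43, 40 and 27 to 145, 172 and 168 tags (1.99, adjusted p = 0.0013), and a region in the receptor gene NOTCH3 from 23, 42 and 37 to 125, 141 and 141 (1.86, adjusted p = 0.0021). RNF220 RNA had a log2 difference of 0.75 and NOTCH3 RNA of -0.12, neither of them called.

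Of these rises 2 lay beside noncoding genes whose RNA also rose. LINC00839 had 23, 16 and 24 tags in V-K562 and 106, 89 and 71 in B-K562 (1.87, adjusted p = 0.0025), and its RNA rose from 150, 150 and 154 to 1046, 1129 and 1043 (log2 difference 2.82). LINC00508 had 25, 25 and 26 tags against 100, 110 and 139 (1.99, adjusted p = 0.0012), with an RNA log2 difference of 1.03. Further rises of this set were at chr5:106246366-106247178 (1.95) and chr3:8371153-8371621, beside LMCD1-AS1 (1.83).

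The tallest of the regions with peaks in only a single line included coding exons, introns and starts. In V-K562 alone they included a coding exon of ABCA7, a lipid transporter gene, with 112, 118 and 112 tags, and a coding exon of GP1BB, a platelet glycoprotein gene, with 135, 110 and 95 tags. ABCA7 RNA was not called at -0.22, and GP1BB was listed at 0 in all 6 RNA libraries. In B-K562 alone they included the start of FAM78A with 129, 132 and 135 tags, an intron of DIABLO, which encodes a pro-apoptotic mitochondrial protein, with 141, 113 and 132, and a region 1.6 kb upstream of SLCO2B1, an organic anion transporter gene, with 128, 111 and 125. The RNA of FAM78A (0.49) and DIABLO (0.32) was not called.

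**Figure D4:**
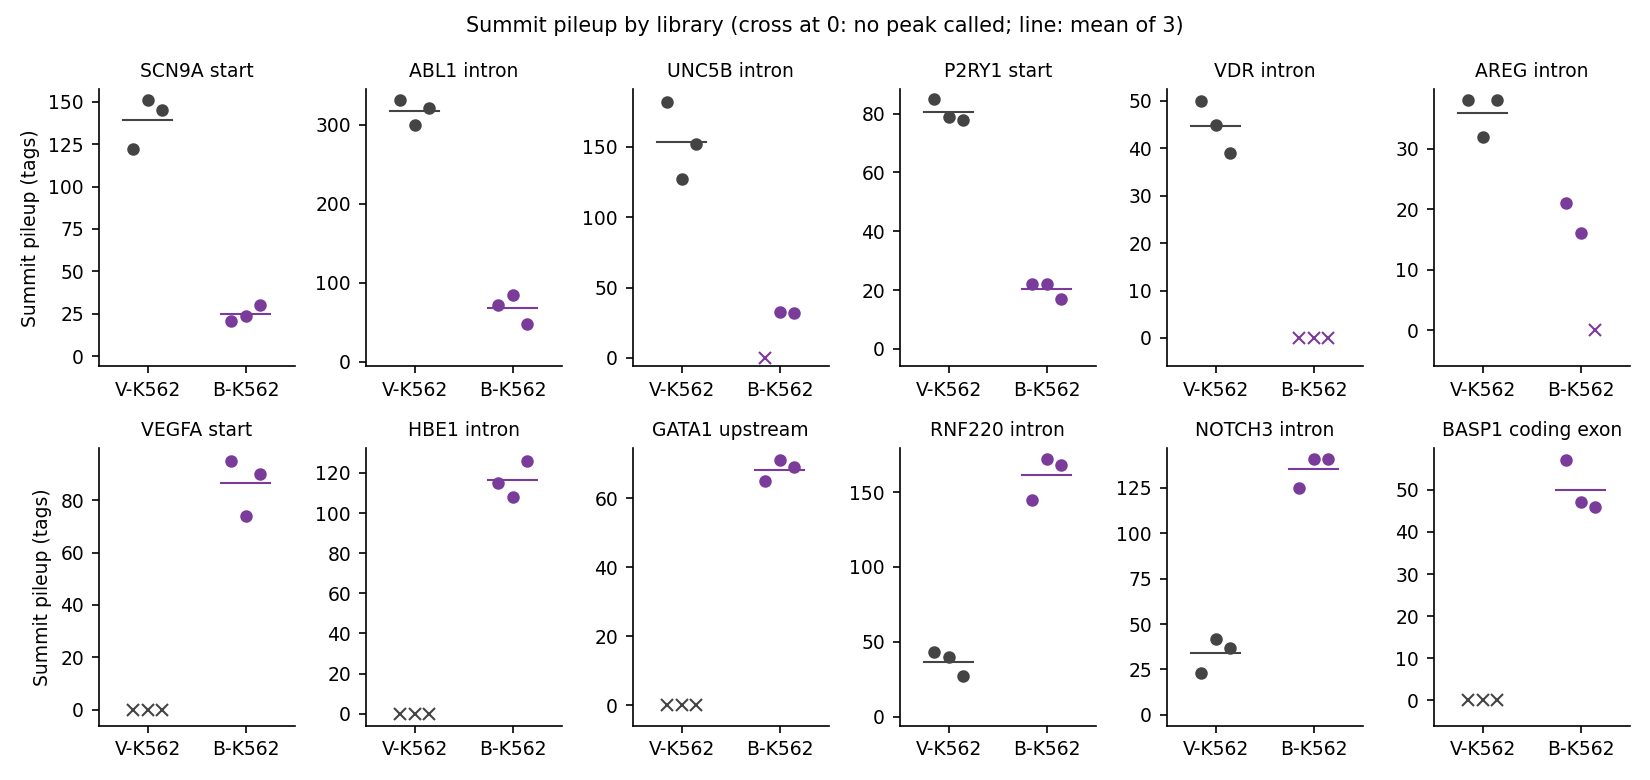
Summit pileup in tags (y axis) by library for 12 regions described in the text, with V-K562 in dark grey and B-K562 in purple; points are libraries, horizontal lines the mean of 3, and crosses at 0 libraries without a called peak. The upper row holds closed regions, where every V-K562 point lies above every B-K562 point, and the lower row opened regions, with the reverse. All 12 were picked from called regions, so the separation describes the choice.

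Among the genes studied before as targets of WT1 and BASP1, closed regions lay in introns of AREG and VDR. Opened regions lay near a start of VEGFA, and EREG had no called region. AREG encodes amphiregulin, a growth factor that binds EGFR. Its start-site region had 53, 67 and 69 tags in V-K562 and 54, 38 and 38 in B-K562, values that overlapped and were not called (log2 difference -0.69, adjusted p = 0.036). Its intronic region chr4:74451167-74451537, printed above, had 38, 32 and 38 tags in V-K562 and 21, 16 and no peak in B-K562, and was called closed. That call was lost with no scaling, with GC scaling, and without B-K562 replicate 2 or 3. AREG RNA fell from 322, 310 and 339 to 53, 56 and 53 (log2 difference -2.56, adjusted p = 1.7e-10). EREG, the neighbouring epiregulin gene, had 2 tested regions, neither of them called, with 20, 20 and 24 tags in V-K562 and 15 in B-K562 replicate 3 alone at the start and with 29, 34 and 35 against 22, 21 and no peak in an intron. It had RNA values of 9 to 18 in V-K562 and 0 to 12 in B-K562.

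VDR, the vitamin D receptor gene, had 6 tested regions, of which 3 intronic ones were closed. The region 17.8 kb from a start had 57, 37 and 57 tags in V-K562 and no peak, 20 and 24 in B-K562. The 2 others had 39, 39 and 30 tags and 50, 45 and 39 tags in V-K562 and no peak in any B-K562 library. The start of VDR had 54, 43 and 43 tags in V-K562 and 60, 62 and 51 in B-K562, which did not differ beyond the spread (log2 difference 0.16, adjusted p = 0.55), while VDR RNA fell from 363, 366 and 414 to 175, 201 and 170 (-1.06). VEGFA, the vascular growth factor gene, had its main start-site region at 93, 116 and 122 tags in V-K562 and 104, 125 and 115 in B-K562, which overlapped (-0.09, adjusted p = 0.65). Beside it, 2 regions within 500 bp of a VEGFA start had no peak in V-K562 and 95, 74 and 90 tags and 63, 85 and 71 tags in B-K562, and were called opened. VEGFA RNA nevertheless fell, from 16137, 16215 and 17513 to 3373, 3431 and 3492 (-2.27, adjusted p = 4.3e-13).

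No region of the genes WT1 and HDAC1 was called. WT1 had 6 tested regions with log2 differences of -0.18 to 0.59 and HDAC1, a histone deacetylase gene, had 6 within 5 kb with -0.26 to 0.35. BASP1 had a single tested region, in its coding exon (chr5:17275136-17275845), with no peak in V-K562 and 57, 47 and 46 tags in B-K562. Tags from the BASP1 expression construct and from the exon of the chromosome cannot be told apart. On the wider list of 22 WT1 target genes 8 of 65 regions were closed and 5 opened (12.3% and 7.69%, against 6.13% and 1.55% of all regions), and 6 of 19 genes tested in RNA were lower and none higher, where 14.1% of all genes tested were lower and 6.46% higher. Its called regions included one in MYC, a growth-driving transcription factor gene, with 51, 37 and 59 tags in V-K562 and no B-K562 peak and with RNA that was not called (0.06), and one at TGFB1 with 39 tags in V-K562 replicate 2 alone and 73, 68 and 63 in B-K562. The TGFB1 call was lost when any library other than V-K562 replicate 2 was left out.

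Erythroid genes had more opened than closed regions. Of the 149 regions of 42 genes on this list 3 were closed and 8 opened (2.01% and 5.37%, against 6.13% and 1.55% of all regions), with a median log2 difference of 0.17, and 12 of 41 genes were higher in RNA and 1 lower (6.46% and 14.1% of all genes). One opened region was 14.8 kb upstream of the HBE1 start, in the locus control region of the beta-globin cluster, the distal enhancer array of these genes. There no V-K562 library had a peak, and the B-K562 libraries had 115, 108 and 126 tags. The neighbouring regions 6.0 and 10.8 kb upstream had peaks in all 6 libraries that overlapped between the lines, at 146, 137 and 107 against 129, 134 and 118 tags, and at 193, 224 and 180 against 223, 185 and 195 tags. HBE1 RNA was higher in every B-K562 library, without reaching 2-fold (0.55, adjusted p = 4.4e-06).

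GATA1 itself had a region 0.6 kb upstream of its start, printed above, with no peak in V-K562 and 65, 71 and 69 tags in B-K562. A region 3.5 kb upstream of the GATA1 start had 95, 90 and 92 tags in V-K562 and 127, 100 and 117 in B-K562 and was not called (0.15), nor was GATA1 RNA (0.22). HBA1, an alpha-globin gene nearly identical to HBA2, had a start-site region with no peak in V-K562 and 86, 80 and 106 tags in B-K562, and its RNA rose from 232, 184 and 154 to 482, 346 and 411 (1.12), with the assignment of reads between the copies uncertain. RHD (which shares much sequence with RHCE, so its tags are uncertain), a red-cell membrane gene, ZFPM1, the partner of GATA1, FECH, the last enzyme of heme synthesis, and GYPC, a glycophorin gene, also had an opened region each. Of these ZFPM1 RNA was called higher (1.33), and those of RHD (-0.10), FECH (0.59) and GYPC (-0.06) were not called. In the other direction, an intronic region of TFRC, the transferrin receptor gene, had 72, 76 and 59 tags in V-K562 and 17 tags in B-K562 replicate 1 alone, while TFRC RNA was not called at 0.90. The other closed regions of the list were in KEL, a blood-group antigen gene, and SLC25A37, the mitochondrial iron importer.

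The genes of AP-1 factors themselves had closed regions at a rate near that of all regions. Of 42 regions of 20 AP-1 and EGR factor genes 3 were closed (7.14%) and none opened, with a median log2 difference of 0.08. The closed ones were an intron of ATF3 with 48, 62 and 49 tags in V-K562 and 23, 31 and 26 in B-K562 (-1.11, adjusted p = 0.009), an intron of BATF with 52, 50 and 53 against 37, 21 and 27 (-1.03, adjusted p = 0.017), and the start of EGR3. None of these 3 calls held with no scaling or with GC scaling. In RNA 3 of the 19 genes of this list that were tested were lower and none higher, against 14.1% and 6.46% of all genes. The median RNA log2 difference of the list was -0.006. The RNA of ATF3 (-1.54), BATF (-1.06) and BATF3 (-1.20), members of the wider AP-1 family, was lower. JUN (-0.19), JUND (-0.03), FOS (0.93) and FOSL1 (0.63), the core members, were not called.

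Of the 24 regions of EGF family and ERBB receptor genes 4 were closed (16.7%, 1 each in NRG1, EGFR, EGF and AREG) and none opened, against 6.13% and 1.55% of all regions, with a median log2 difference of -0.54. Of these 4 calls 3 were lost with no scaling, all but NRG1, and those of EGF and AREG also with GC scaling. In RNA 3 of 7 genes were lower and none higher, against 14.1% and 6.46% of all genes. An intron of NRG1, the neuregulin gene, had 53, 61 and 67 tags in V-K562 and 22 in B-K562 replicate 1 alone, though its RNA was 0 to 2 in all libraries. The start of EGF had 39, 36 and 29 tags in V-K562 and no B-K562 peak, and EGF RNA fell from 854, 854 and 930 to 271, 272 and 263 (-1.71). Of 43 regions of MAP kinase feedback genes 3 were closed and 1 opened (6.98% and 2.33%), close to the shares of all regions. DUSP10, a phosphatase gene that restrains MAP kinases, had an intronic region with GATA and AP-1 motifs that had 64, 51 and 67 tags in V-K562 and no B-K562 peak, and DUSP10 RNA fell from 714, 805 and 745 to 318, 311 and 287 (-1.30).

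Genes of cell contact and guidance had closed regions at about the rate of all regions (6.13%). Of 149 axon guidance regions 6 were closed (4.03%) and 3 opened (2.01%), and 15 of 39 genes were lower in RNA and 3 higher, against 14.1% and 6.46% of all genes. UNC5B, a netrin receptor gene, had an intronic region with 182, 127 and 152 tags in V-K562 and no peak, 33 and 32 in B-K562, while its start had 52, 78 and 101 against 68, 59 and 76 tags, and its RNA fell from 4924, 4925 and 5807 to 1057, 1056 and 996 (-2.33). SLIT3, UNC5C and EPHB2 each had an intronic region with peaks in every V-K562 library alone (34 to 51 tags) and lower RNA (-2.71, -2.15 and -2.26). Of 128 collagen and laminin regions 8 were closed (6.25%) and none opened, and 17 of 34 genes were lower in RNA and 1 higher (14.1% and 6.46% of all genes). The region upstream of LAMB3, a laminin chain gene, had 60, 53 and 56 tags in V-K562 and 28 in B-K562 replicate 2 alone, with lower RNA (-1.64).

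The remaining lists had few called regions. Interferon-stimulated genes had 3 of 38 regions closed (7.89%) and none opened, near the 6.13% and 1.55% of all regions, and 10 of 25 genes lower and none higher in RNA, against 14.1% and 6.46% of all genes. Among them was USP18, an interferon-induced protease, whose upstream region had 50, 46 and 52 tags in V-K562 and no B-K562 peak and whose RNA fell (-1.21). The closed call at the start of IFIH1, a sensor of viral RNA, was lost with no scaling (-0.94) and with GC scaling. Nucleolar factors had 1 of 56 regions closed, a call lost with no scaling and with GC scaling, and none opened, although 23 of 39 genes were higher in RNA and none lower. WNT pathway genes had 1 of 107 regions closed and 4 opened (3.74%), including the start of LEF1, a transcription factor of this pathway, with no peak, 29 and 25 tags in V-K562 and 58, 63 and 54 in B-K562. LEF1 RNA was not called (0.65). Megakaryocyte genes had 1 of 51 regions closed and 1 opened, with 1 of 13 genes lower and 2 higher in RNA, and none of the 22 regions of HOX genes was called, with 2 of 18 genes lower and 1 higher.

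Some long genes held several closed regions, and those with the most are named here. Of all regions tested 6.13% were closed and 1.55% opened. HIVEP3, a zinc-finger gene, had 8 of 16 tested regions closed, PRKCE, a protein kinase C gene, 6 of 16, and GAB2, a signaling adaptor that binds BCR-ABL1 complexes, 5 of 14. The RNA of GAB2 fell from 7414, 7499 and 8486 to 2055, 2108 and 2185 (-1.88, adjusted p = 9.5e-12), in a 5-Mb stretch of chromosome 11 (75 to 80 Mb) where 24 of 182 regions were closed, and those of HIVEP3 (-1.45) and PRKCE (-1.76) fell as well. HMCN1, an extracellular matrix gene, had 5 of 9 regions closed, the noncoding genes LINC-PINT 5 of 14 and STXBP5-AS1 5 of 25 (an antisense gene, with the strand used for counting not given in the sources used here), and ARHGAP26 4 of 15. The 6 genes with at least 5 closed regions were all lower in RNA, by log2 differences of -1.33 to -1.88. They were picked for their closed counts. Of genes with 2 or more closed and no opened regions 36.1% were lower, against 14.1% of all genes tested. Of the 13 genes with 4 closed regions, ABL1 and GSE1 among them, 4 were lower (ARHGAP26, ELMO1, PARK2 and SH3TC1) and 9 were not called, a count added after the values were seen. Opened regions were more scattered. GSE1, which encodes a protein of histone deacetylase complexes, had 5 opened and 4 closed of 56 regions, PDE4A, a cyclic AMP phosphodiesterase gene, 3 of 9 opened, and no other gene more than 2. Both had higher RNA in every B-K562 library without reaching 2-fold (0.60 and 0.45). GSE1 lies in a 5-Mb stretch of chromosome 16 (85 to 90 Mb) where 10 of 267 regions were opened and 11 closed. The median log2 differences of this stretch were 0.23 in accessibility and 0.405 in RNA. EEF1A1, the translation elongation factor gene, had 2 of 4 regions opened with RNA at -0.61, and it has many processed copies in the genome, so its reads are uncertain.

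The RNA of each gene was set beside the regions nearest to it. Of the 1245 tested genes that lay within 5 kb of a closed and no opened region, 346 were lower in RNA (27.8%) and 29 higher (2.33%), against 14.1% and 6.46% of all 14958 genes tested. Of the 416 genes near an opened and no closed region 17 were lower (4.09%) and 66 higher (15.9%). The 10878 genes with tested regions but no called region had 12.4% lower and 5.76% higher. The share lower was 36.1% among the 216 genes with 2 or more closed regions and 46.1% (59 of 128) among those closed at a start site. Of the 133 genes opened at a start site 27 were higher (20.3%) and 4 lower. A start-site region was paired with its closest gene, so the start itself may belong to another gene. The median RNA log2 difference was -0.33 near closed, 0.26 near opened and 0.02 near uncalled regions, and -0.91 and 0.31 for genes closed and opened at the start. Most genes near a called region thus did not reach a 2-fold change in RNA. Over 9895 genes with a tested start site, the Spearman correlation of the start-site and RNA log2 differences was 0.254, across genes that are not independent and share the lines compared.

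**Figure D5:**
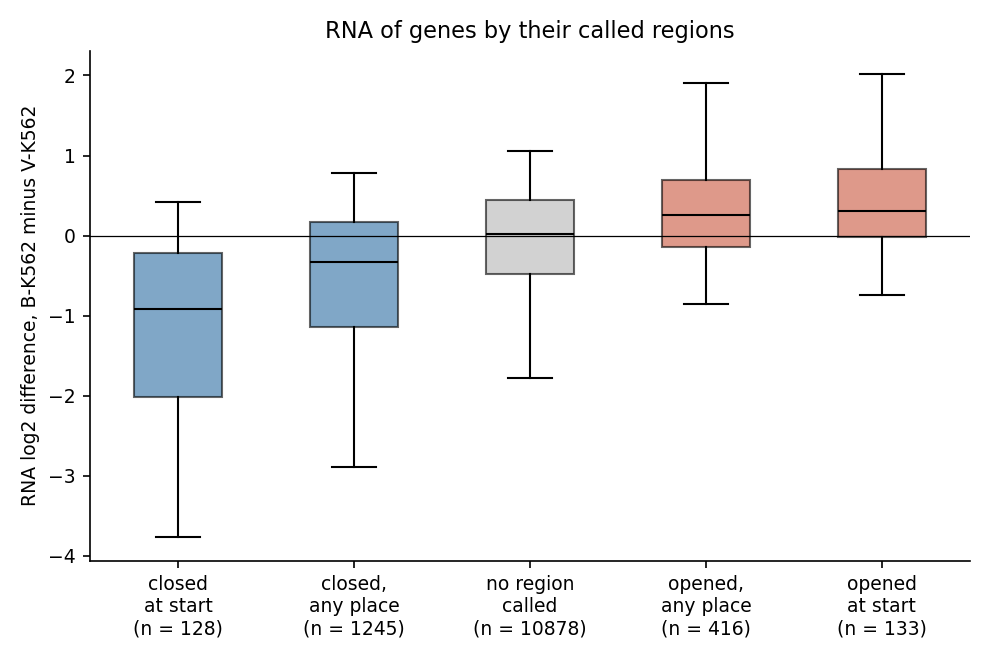
RNA log2 difference, B-K562 minus V-K562, of genes grouped by the called regions nearest to them; boxes span the quartiles with the median as a line, and whiskers the 5th to 95th percentiles. The median runs from -0.91 for genes closed at a start site through 0.02 with no called region to 0.31 for genes opened at a start site.

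Besides SCN9A, the genes with the largest falls at a start site (with 17 tags for a missing peak) and lower RNA were PFKFB4, RTN4R, P2RY1, ACVRL1 and TUBA3C. P2RY1, a receptor for ADP, had 85, 79 and 78 tags in V-K562 and 22, 22 and 17 in B-K562 (-2.07, SE 0.19, adjusted p = 0.0013), and its RNA fell from 1000, 1027 and 1055 to 144, 151 and 176 (-2.71). PFKFB4, an enzyme gene that regulates glycolysis, had 75, 90 and 90 tags in V-K562 and no B-K562 peak, with RNA at -1.24. ACVRL1, a TGF-beta family receptor gene, had 60, 60 and 77 tags and no B-K562 peak, with RNA at -2.37. The start of TUBA3C, an alpha-tubulin gene, had 52, 56 and 74 tags and no B-K562 peak, and its RNA fell from 1816, 1670 and 1638 to 143, 131 and 130 (-3.65). The start of RTN4R, the Nogo receptor gene, had 85, 78 and 77 tags and no B-K562 peak, with RNA at -1.17. All of these calls held with no scaling and with GC scaling. RDH13, a retinol dehydrogenase gene, was the only gene closed at its start with higher RNA: it went from 89, 101 and 76 to 57, 52 and 31 tags (-1.10, adjusted p = 0.012, call lost with no scaling) while its RNA rose (1.20).

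On the opened side, PNMT, which makes adrenaline, had 50 tags in V-K562 replicate 2 alone and 113, 121 and 129 in B-K562, with RNA at 1.39. The starts of DDX53, a testis-expressed helicase gene, and CYB5A, the cytochrome b5 gene, had no V-K562 peak and 73, 74 and 73 and 53, 61 and 76 tags in B-K562. DDX53 RNA rose from 55, 66 and 47 to 350, 368 and 356 (2.67) and CYB5A RNA from 114, 97 and 75 to 318, 310 and 303 (1.71). Genes with an opened start-site region and lower RNA were VEGFA, VPS9D1, ST6GAL1 and TRPM4, the last named after its values were seen. The start nearest to the VPS9D1 region was that of ZNF276, 161 bp from the summit. TRPM4, a cation channel gene, had 61, 48 and 69 tags in V-K562 and 124, 155 and 134 in B-K562 (1.06, adjusted p = 0.0045), with RNA at -1.01. The calls at VPS9D1, ST6GAL1 and TRPM4 were lost with GC scaling. ST6GAL1, a sialyltransferase gene, had 37 tags in V-K562 replicate 2 alone and 51, 51 and 52 in B-K562 (call lost when any library other than V-K562 replicate 2 was left out), with RNA at -1.24.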

How the data were processed

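ATAC-seq libraries of V-K562 and B-K562 cells, 3 each, were compared. The authors aligned reads with BWA-MEM (build GRCh38), discarded duplicates, brought all libraries to equal tags and called peaks in each by MACS2. The deposited signal values are tags at each summit and their mean (coverage) over the interval. Interval starts counted from 0, so 1 was added. Overlapping intervals were merged, the highest summit value was taken, and regions with peaks in at least 3 libraries were kept. Values were scaled by a trimmed mean (30% of ratios and 5% of means trimmed) and raised to at least 17 tags. RNA values are normalized read counts (STAR, Subread and DESeq2 size factors) that the authors rounded to whole numbers, treated as a score. Genes with at least 10 in at least 3 libraries were tested (14958). Tests used log2(value + 1) in limma 3.58.1 (R 4.3.3) with a variance trend and Benjamini-Hochberg adjustment, and calls needed an adjusted p of at most 0.05 and a 2-fold difference. A called fold is on that scale and is smaller than the true one for low values. The p-values measure the spread between cultures of 1 line per construct. The tests were checked on simulated data.

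Each region was given the nearest gene, up to 5 kb away, from exon positions in the RNA table (6 genes spanning over 2500 kb excepted), and a feature from GENCODE transcripts. Start sites are within 500 bp of any protein-coding start, which need not be that of the gene given, and distal regions over 5 kb away. Motifs were searched in 200 bp at the summit. Sequences are from the hg38 assembly, on which all intervals ended within the chromosomes. The regions named are those of AREG, EREG, VDR, VEGFA, WT1, BASP1 and HDAC1, the 8 largest falls and rises with 6 peaks, the 5 tallest of a single line in each direction, the 8 genes with most calls in each direction, up to 4 members of each gene list, and start-site regions with RNA called in the same (6) or the opposite (3) direction. Not all are described, and a few items are not reported here. Neighbouring regions of HBE1, GATA1, ABL1 and BCR were chosen after their values were seen. The members, gene lists and motifs were chosen with earlier results of these data known. The authors' own fold changes and p-values and the table for the third line were not used. Other steps ran in Python 3.11.15 (with scipy 1.17.1, pandas 2.3.3, numpy 2.4.6, and matplotlib 3.10.9 for plots). Alternatives changed the scaling, peak filter, floor, summary value, pseudocount, merging, call rule, libraries and replicate block.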

Additional observations from a re-analysis of the deposited data

How the results depend on the processing

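No called region named by the rule turned its direction under any alternative in which it was tested. With peaks required in all 6 libraries, only 25 of these 78 regions were tested. Over all regions, none closed here was opened under another setting or the reverse. Merging over all 9 ATAC-seq libraries was left out of that comparison over all regions. Requiring peaks in all 6 libraries gave 1030 closed and 212 opened regions (82.9% closed), a floor of 10 tags 6272 and 1433 (81.4%), the mean pileup 1869 and 534 (77.8%), and no fold criterion 8625 and 4548 (65.5%). The closed share was 65.9% without scaling, 69.8% with GC scaling, 81.0% with peaks in at least 2 libraries and 78.5% with the replicate block. Under peaks in all 6, a floor of 10, the mean pileup and no fold criterion, closed start-site regions numbered 53, 263, 88 and 439, closed distal regions 897, 5364, 1483 and 7204, and opened distal regions 153, 951, 284 and 1756. Opened start-site regions numbered 31 with peaks in all 6, 98 with the mean pileup, 2223 with no fold criterion, 276 without scaling and 103 with GC scaling. Of the regions of the 7 genes studied before, 7 were called, none with peaks in all 6 (0) and 11 without a fold criterion. Genes near closed regions that were lower in RNA numbered 122 (peaks in all 6), 229 (mean pileup) and 624 (no fold criterion), and those higher 9, 60 (floor of 10), 62 (no fold criterion) and 19 (no scaling). Genes near opened regions that were lower numbered 5 (peaks in all 6), 40 (floor of 10), 11 (mean pileup), 127 (no fold criterion) and 31 (no scaling), and those higher 24, 43 (mean pileup) and 241 (no fold criterion). The counts thus moved most with the peak filter, the floor, the summary value and the fold criterion; the cause of these shifts was not tested.

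Leaving out 1 library at a time gave 2712 to 3179 closed and 656 to 888 opened regions (78.2 to 80.8% closed), 127 to 147 closed and 110 to 175 opened start-site regions, 2225 to 2643 closed and 397 to 512 opened distal regions, and 6 to 7 called regions of the studied genes. Genes near closed regions numbered 307 to 350 lower and 26 to 35 higher, and genes near opened regions 11 to 27 lower and 60 to 70 higher in RNA. The number near opened regions lower in RNA was 27 without V-K562 replicate 2 and 11 without B-K562 replicate 2. Of 78 called regions named by the rule, 17 lost the call with the mean pileup, 12 with a pseudocount of 5, 11 with GC scaling, 10 without scaling and 6 to 13 without a library. With the replicate number as a block 3251 regions were closed and 889 opened, and 1 named region (EGR3) lost its call; deviations of same-numbered libraries correlated at 0.080, 0.024 and 0.020, so the numbers were not taken to pair the libraries. The shares of closed regions with AP-1 (33.5 to 40.8%) and of opened regions with it (5.63 to 9.08%) were recomputed under alternatives chosen after seeing the data, and those with GATA were 19.8 to 26.2% and 18.8 to 38.2%; the GATA order turned without a fold criterion. Tag counts under about 20 per summit limit what can be seen, since 25% (V-K562) and 34.6% (B-K562) of such peaks were missing from a library when present in the other libraries of its line.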

Other observations

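The distal end of the long arm of chromosome 11 had high medians in accessibility, with RNA medians above 0. In 531 stretches of 5 Mb with at least 20 tested regions each, the median log2 difference in accessibility ran from -0.72 to 0.43, with 5th and 95th percentiles of -0.39 and 0.16. The 4 stretches of chromosome 11 from 115 to 135 Mb had medians of 0.36 (145 regions), 0.31 (69), 0.26 (57) and 0.43 (46). The last of these was the highest of all, and it held 3 opened regions and no closed one. The genes of these stretches had median RNA log2 differences of 0.23, 0.21, 0.31 and 0.63, so accessibility and RNA were both above their medians over the genome (-0.06 and 0.007). RNA medians near the first 3 also occurred elsewhere, as on chromosome 6 from 20 to 25 Mb (0.32), where the accessibility median was -0.17. The medians of accessibility stayed above 0 with no scaling (0.41 to 0.56) and with GC scaling (0.28 to 0.52). The opened region in POU2F3, printed in the report, lies in the stretch from 120 to 125 Mb. Whether the lines differ in DNA content there was not tested.

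Some other stretches of the same arm did not share this, and others did. Medians were 0.04 from 65 to 70 Mb, -0.05 from 70 to 75 Mb and -0.25 from 100 to 105 Mb, where the RNA median was -1.33 over 10 genes. The stretch from 75 to 80 Mb, which holds GAB2, had a median of -0.28 over 182 regions, with 24 closed and 2 opened, and its 37 genes tested in RNA had a median of -0.52. The next stretch, from 80 to 85 Mb, was at 0.31 over 22 regions, with an RNA median of 0.46 over 9 genes. Medians were also raised from 85 to 90 Mb (0.12), 105 to 110 Mb (0.23) and 110 to 115 Mb (0.16). The RNA medians there were 0.59, 0.53 and 0.29. From 90 to 95 Mb and 95 to 100 Mb the medians were 0.10 and 0.06, with RNA medians of 0.37 and 0.001. Outside chromosome 11, the highest median was that of chromosome 16 from 0 to 5 Mb, at 0.27 over 297 regions, with an RNA median of 0.40 over 164 genes. That stretch holds the opened start-site region of HBA1. By chromosome, the share of closed regions ran from 1.76% on X (23 of 1305, with 26 opened) to 8.27% on chromosome 6 (282 of 3411, with 58 opened).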
